A study of Drosophila melanogaster with 3 samples.

Results

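The regions described here are the binding sites of the fly protein CG16779 that lie at divergent promoters, where 2 protein-coding genes start close together and are read in opposite directions. Of 4805 peaks on the chromosome arms that passed the irreproducible discovery rate (IDR) procedure, which scores peaks by how well their ranks match between replicate lists, 279 had their summit within 500 bp of annotated start sites of at least 2 protein-coding genes on opposite strands. They made up 5.81% of the IDR peaks, with a 95% exact binomial interval of 5.16 to 6.51%. A further 1591 peaks lay within 500 bp of protein-coding start sites of 1 strand only and are called one-strand promoter peaks here, and 2935 lay at no such start site. DNA bound by the protein was purified by chromatin immunoprecipitation and sequenced (ChIP-seq), starting from whole prepupae of Drosophila melanogaster, with both sexes pooled and the age not known. All samples came from the strain CG16779-MiMIC, in which an enhanced green fluorescent protein (eGFP) exon in an intron of CG16779 gives a fusion protein, and an antibody against GFP was used. The labels put the libraries in 1 group of 3 biological replicates, and the sonicated fragments were 200 to 800 bp long. The line is a single insertion line and the tissue a whole animal, so the cells that gave a peak are not known, and without a second group no condition is compared.

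A divergent promoter holds 2 core promoters back to back, with a short stretch between the start sites that often lacks nucleosomes and can serve both genes. In the compact fly genome such pairs are common and often consist of housekeeping genes, whose start regions tend to carry core promoter elements other than the TATA box. A factor bound between the start sites lies upstream of both genes at once, whereas one bound over a start site lies nearer to one of them.

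The intergenic stretches of 9 members are shown so that the position of the summit and the bases under it can be read. The sequences come from 39 members on arms 2L, 3L, 3R and X whose summit lay more than 25 bp from both start sites in an exon-free gap of at most 300 bp. Each runs from the base after the minus-strand start site to the base before the plus-strand start site, and was read 5′ to 3′ on the plus strand from the RefSeq genome of Release 6, the build dm6. Capitals mark the 51 bases centred on the summit. The 4 of largest score, at IDR ranks 31, 44, 46 and 67, come first, and each pair names the minus-strand gene first.
CG3437/CG3552 (chr3L:9457670-9457911): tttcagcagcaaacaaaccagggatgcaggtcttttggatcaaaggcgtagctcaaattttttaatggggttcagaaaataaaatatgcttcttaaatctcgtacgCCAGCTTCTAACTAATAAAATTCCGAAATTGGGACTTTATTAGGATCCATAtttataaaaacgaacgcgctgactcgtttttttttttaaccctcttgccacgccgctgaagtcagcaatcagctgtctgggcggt
Tcs5/CHMP2B (chr3L:5139396-5139618): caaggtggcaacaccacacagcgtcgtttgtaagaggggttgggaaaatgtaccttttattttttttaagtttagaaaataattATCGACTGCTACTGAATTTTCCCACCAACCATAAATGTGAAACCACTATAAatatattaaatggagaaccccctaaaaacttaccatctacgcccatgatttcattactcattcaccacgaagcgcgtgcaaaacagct
Art3/mRpS10 (chr3R:15229409-15229664): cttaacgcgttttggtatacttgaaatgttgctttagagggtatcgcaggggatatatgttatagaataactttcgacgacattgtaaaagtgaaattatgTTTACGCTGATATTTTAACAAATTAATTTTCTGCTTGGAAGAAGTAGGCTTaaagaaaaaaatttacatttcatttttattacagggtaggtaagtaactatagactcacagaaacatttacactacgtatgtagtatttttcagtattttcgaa
CG13390/CG17294 (chr2L:8376798-8377034): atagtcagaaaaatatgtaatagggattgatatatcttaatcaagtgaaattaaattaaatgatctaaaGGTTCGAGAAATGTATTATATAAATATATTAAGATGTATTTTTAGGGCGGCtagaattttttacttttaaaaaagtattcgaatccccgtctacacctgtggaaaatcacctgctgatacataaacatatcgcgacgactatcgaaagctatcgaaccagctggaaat
The next, fws/Lamtor3 at IDR rank 211, is shown because it holds TATCGATA, from base 189, and the last 4 are those of smallest score, at IDR ranks 3115, 4162, 4358 and 4610.
fws/Lamtor3 (chr2L:17481030-17481230): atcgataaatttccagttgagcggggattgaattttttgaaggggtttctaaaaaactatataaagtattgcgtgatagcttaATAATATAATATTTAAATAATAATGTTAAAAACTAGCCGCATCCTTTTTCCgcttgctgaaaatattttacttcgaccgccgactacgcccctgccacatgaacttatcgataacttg
CG7536/Ada3 (chrX:18085463-18085760): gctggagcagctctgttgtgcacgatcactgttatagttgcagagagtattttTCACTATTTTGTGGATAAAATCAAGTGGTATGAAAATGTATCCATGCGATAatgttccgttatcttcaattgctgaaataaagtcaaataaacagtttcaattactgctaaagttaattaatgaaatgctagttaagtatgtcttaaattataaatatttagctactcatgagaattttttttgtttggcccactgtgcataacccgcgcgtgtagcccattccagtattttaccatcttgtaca
CG9586/tai (chr2L:9166515-9166777): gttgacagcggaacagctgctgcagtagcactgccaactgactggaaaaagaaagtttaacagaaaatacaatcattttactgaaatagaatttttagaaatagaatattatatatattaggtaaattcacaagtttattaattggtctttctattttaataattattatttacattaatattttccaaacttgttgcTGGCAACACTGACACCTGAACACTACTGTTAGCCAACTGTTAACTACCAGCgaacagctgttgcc
CG3857/CG3587 (chrX:1940041-1940306): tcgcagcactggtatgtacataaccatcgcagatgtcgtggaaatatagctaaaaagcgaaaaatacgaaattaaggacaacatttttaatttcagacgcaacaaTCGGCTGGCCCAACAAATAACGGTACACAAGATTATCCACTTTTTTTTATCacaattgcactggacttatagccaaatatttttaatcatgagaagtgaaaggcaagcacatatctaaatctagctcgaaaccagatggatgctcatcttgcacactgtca
CG45218/Tm1 (chr3R:15290800-15290943): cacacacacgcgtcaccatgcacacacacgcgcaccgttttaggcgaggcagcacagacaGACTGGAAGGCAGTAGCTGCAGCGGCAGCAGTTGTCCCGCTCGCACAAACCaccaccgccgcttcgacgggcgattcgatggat
Of the 51 bases in capitals, 33.3, 37.3, 29.4 and 29.4% were G or C in the 4 of largest score, and 21.6% in fws/Lamtor3. In the 4 of smallest score the share was 31.4, 47.1, 39.2 and 62.7%, so that CG7536/Ada3 was as poor in G and C as the strong ones. The summit fell at base 132 of 242, 110 of 223 and 127 of 256 in the first 3, near the middle, and at 95 of 237 in CG13390/CG17294. Among the weak ones CG3857/CG3587 also had it near the middle, at base 131 of 266, and CG45218/Tm1 at 86 of 144. CG7536/Ada3 had it at 79 of 298, and CG9586/tai at 224 of 263, towards tai, which codes for the ecdysone receptor coactivator Taiman.

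With the nearest annotated start sites, most summits fell in the gap between the genes. In 264 of the 279 members the start sites pointed away from each other, and in the other 15 the 5′ ends of the genes overlapped, by 33 to 443 bp, so that these are divergent by the rule without being head to head. Of the 264, 164 had the summit between the start sites, 62.1% (95% exact interval 56.0 to 68.0), 50 had it inside the minus-strand gene and 50 inside the plus-strand gene. The same share among divergent summits of each replicate's 4805 strongest regions, a number equal to that of the IDR peaks, was 55.3, 53.2 and 71.5% in replicates 1, 2 and 3. Replicate 3 was the highest and replicates 1 and 2 were close together, and each was above 50%. With the outermost start site of each gene in place of the nearest one the IDR share was 52.7% and the replicate mean 51.9 ± 11.5% (SD, n = 3), so the majority between the start sites was then within the spread of the replicates. The nearer gene was the minus-strand one in 145 of 279 members, 52.0% (45.9 to 58.0). The median summit lay 95 bp from the nearer start site and 246 bp from the farther one, and 78 of the 164 summits in a gap fell in its middle section when it was cut into 3 equal lengths. Most members, 259, had 2 genes within 500 bp, 18 had 3 and 2 had more. The 279 members stood for 266 nearest gene pairs and 552 genes, so a few pairs carried more than 1 summit.

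Strong and weak members differed in where the summit lay. Ranked by the deposited peak score, which the rule did not use, the members were cut into 3 tiers of 93. In the upper tier 67 of 90 head-to-head members had the summit between the start sites, 74.4% (64.2 to 83.1), against 55 of 89 in the middle tier, 61.8% (50.9 to 71.9), and 42 of 85 in the lower tier, 49.4% (38.4 to 60.5). The farther gene was correspondingly nearer in the upper tier, with a median distance of 188 bp, against 248 bp in the middle tier and 342 bp in the lower one. The distance to the nearer gene showed no such order, with medians of 111, 82 and 92 bp.

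The replicates were cut into tiers in the same way, from their own strongest regions and scores. The share between the start sites was 70.4, 69.4 and 79.7% in the upper tier and 47.9, 43.0 and 63.3% in the lower tier of replicates 1, 2 and 3. The upper tier was higher in 3 of 3 replicates, by 21.8 ± 5.03 percentage points (SD, n = 3), and the tiers did not overlap across replicates. An exact two-sided sign-flip permutation test over the replicates gave p = 0.25, which is the smallest value that 3 replicates allow, so no comparison tested in this way can reach 0.05. In regions strong in both remaining replicates the difference was 12.5 points without replicate 1, 18.2 without replicate 2 and 19.6 without replicate 3, against 25.03 in the IDR set. The median distance to the farther gene was shorter in the upper tier in each, with differences of -132, -88 and -94.5 bp in replicates 1, 2 and 3 (exact permutation p = 0.25). One-strand promoter peaks also lay upstream of the start site more often when strong, by 19.3, 14.4 and 17.0 percentage points, and the difference in this shift between the classes, 5.42 ± 6.95 points (SD, n = 3), was smaller than its spread (exact permutation p = 0.5).

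**Figure D1:**
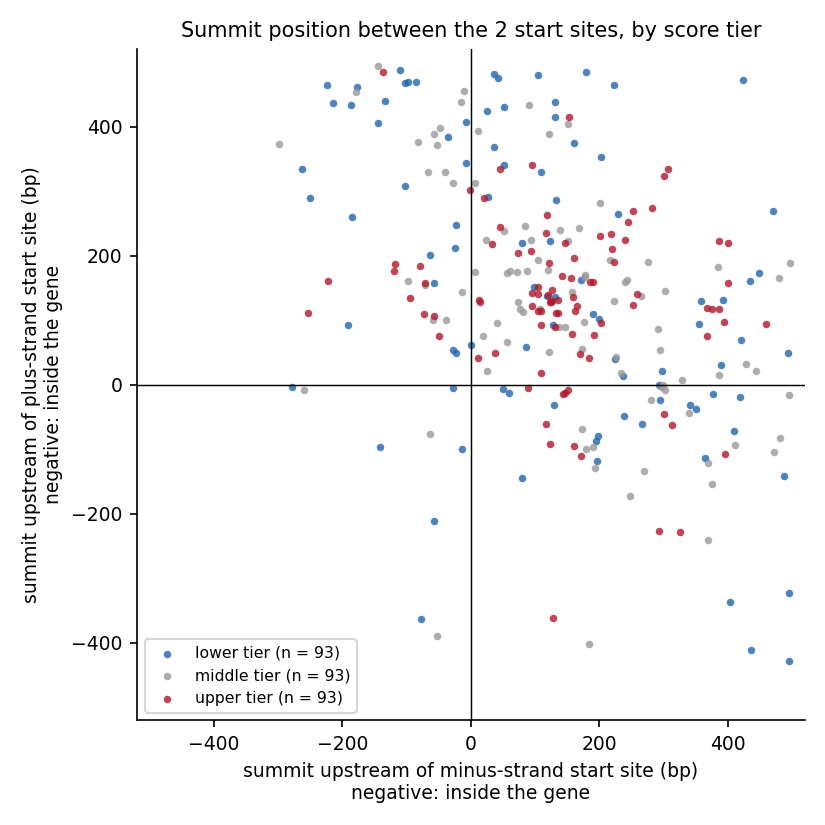
Each point is 1 of the 279 members, placed by the distance in bp of its summit upstream of the minus-strand start site (horizontal axis) and of the plus-strand start site (vertical axis), with negative values inside the gene and colours for the score tiers of 93 members. Upper-tier members gather in the upper right quadrant, between the start sites, where 67 of the 90 head-to-head ones lie, while lower-tier members spread along the edges, with a median of 342 bp to the farther gene.

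The DNA under the strong summits was poor in G and C. In the 51 bases centred on the summit the mean GC content was 31.4 ± 9.70% (SD over 93 members) in the upper tier, 37.5 ± 13.1% in the middle tier and 43.3 ± 11.2% in the lower tier. At 150 bp to either side it was 40.5, 41.3 and 41.1%, nearly the same in all tiers. The dip was therefore narrow and belonged to the summit of the stronger members, since 74 of 93 in the upper tier had less GC at the summit than at its sides, 79.6% (69.9 to 87.2), and 38 of 93 in the lower tier, 40.9% (30.8 to 51.5).

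The order held in each replicate's own list. The summit GC content was 33.2, 30.8 and 31.3% in the upper tier and 43.2, 41.9 and 36.8% in the lower tier of replicates 1, 2 and 3. The upper tier was lower in 3 of 3, with differences of -9.97, -11.1 and -5.55 points and a mean of -8.87 ± 2.93 points (SD, n = 3, exact permutation p = 0.25). Replicate 3 had the smallest difference, and its lower tier was poorer in GC than those of the other replicates. One-strand promoter peaks showed a shift of the same direction, -6.79 ± 0.731 points, and the difference between the classes was -2.08 ± 3.63 points (exact permutation p = 0.5), which is within its spread. Head-to-head gene pairs without a pooled summit within 500 bp of both genes, 2079 in number, are called unbound divergent promoters here. A pooled summit near only 1 gene was not excluded. The gap had a 90th percentile of 736 bp over all head-to-head pairs and 521 bp in head-to-head members. The unbound pairs had 33.4% GC at the midpoint between the start sites and 38.9% at 150 bp from it. This dip was broader than that of the upper tier, and the part of gap length in it was not tested. At the same midpoint the 264 head-to-head members had 32.1% GC, and the upper, middle and lower tier 32.0, 30.3 and 34.0%, so the middle of the gap was poor in GC in all tiers, with a difference of -2.02 points between the upper and the lower one. Where the summit lay between the start sites, the GC content under it was 30.9 ± 10.2% in 67 upper-tier and 38.7 ± 11.9% in 42 lower-tier members (SD over members). Where it lay inside a gene, it was 33.3 ± 8.46% in 23 and 47.3 ± 9.39% in 43. The upper tier was lower in 3 of 3 replicates in both settings, with mean differences of -6.52 ± 3.02 and -9.10 ± 0.980 points (SD, n = 3, exact permutation p = 0.25 each). The part that base composition plays in the score was not tested.

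**Figure D2:**
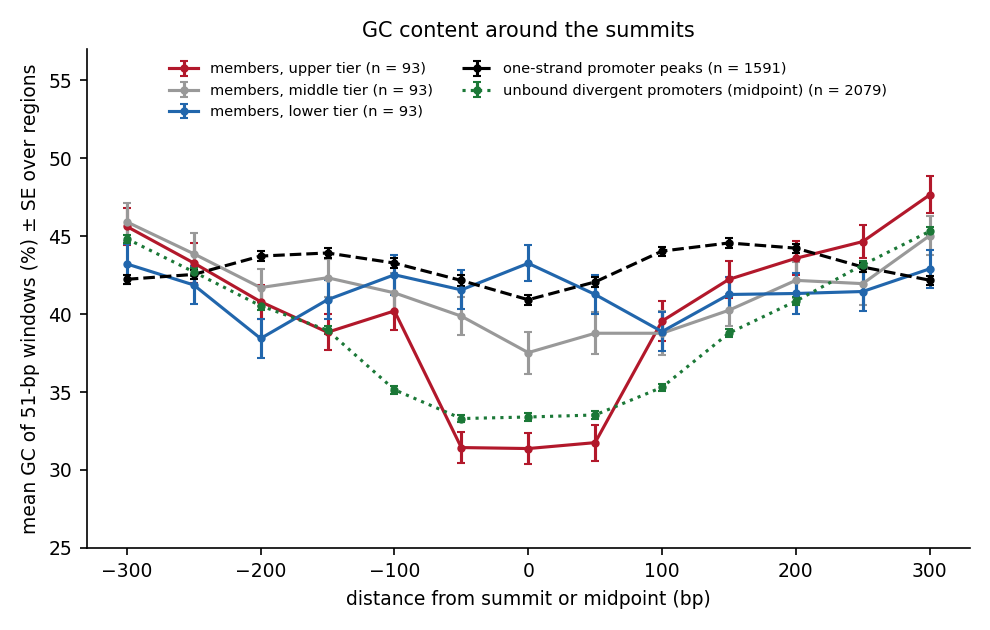
Mean GC content in % of 51-bp windows at 50-bp steps around the summit for the 3 score tiers of members and for one-strand promoter peaks, and around the midpoint of the start sites for head-to-head pairs without a pooled summit within 500 bp of both genes. Bars are standard errors over regions. The upper tier dips to 31.4% at the summit, the lower tier stands at 43.3%, and the unbound promoters show a wider dip around 33.4%.

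The strongest members reached the top of the whole set. Scores are the authors' own and each list has its own scale. In the IDR set they ran from 174 to 2225 over the members, with a median of 320. At the head stood the promoter shared by Chro, which codes for the chromodomain protein Chromator of interphase chromosomes and the spindle, and Ssl1, a subunit of the transcription and repair factor TFIIH. Its peak, chr3L:22878727-22879075, held IDR rank 18 and ranks 29, 26 and 14 in replicates 1, 2 and 3, with scores of 629, 583 and 1018. All ranks were near the top, and the summit lay 79 bp inside Chro and 184 bp upstream of Ssl1, outside the gap of 105 bp. The second, chr2L:13835300-13835652, lay between mRpS23, a protein of the small mitochondrial ribosomal subunit, and CenG1A, an Arf GTPase activating protein. Its IDR rank was 19 and its replicate ranks were 32, 16 and 18, with the summit 98 bp upstream of CenG1A and 394 bp upstream of mRpS23.

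The next strong members gave the central position in its plainest form. The summit at CG3437/CG3552 lay 132 and 111 bp upstream of the genes and ranked 60, 27 and 27 in replicates 1, 2 and 3. Tcs5 codes for a kinase of the complex that modifies transfer RNA and CHMP2B for a subunit of the membrane-cutting ESCRT-III machinery, and their shared summit lay 110 and 114 bp upstream of them, at ranks 90, 79 and 25. Art3, an arginine methyltransferase gene, and mRpS10, another mitochondrial ribosomal protein gene, had a summit 127 and 130 bp upstream, at ranks 83, 76 and 28. In these 3 members the distances to the genes differed by 21 bp or less, and replicate 3 ranked each at least as high as the others did.

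CG11309/CG7632 ranked 30 in the IDR set and Fbw5/CG9147, named for an F-box protein with WD repeats, ranked 42, and both had the summit inside one of the genes, 95 bp into CG11309 and 13 bp into CG9147. The member of highest score on arm 2R, alc/CG8788, where alc codes for the beta subunit of the AMP-activated kinase, ranked 11 and 9 in replicates 1 and 2 but 141 in replicate 3. On arm X it was Stt3A/bves, with Stt3A a catalytic subunit of oligosaccharyltransferase, at ranks 79, 37 and 130. Both were lower in replicate 3 than in the other replicates, the reverse of Tcs5/CHMP2B and Art3/mRpS10. Pdrg1/Pal1 at rank 59 and CG13390/CG17294 at rank 67 close the 12 strongest, and of these 12 members 9 had the summit between the start sites.

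**Figure D3:**
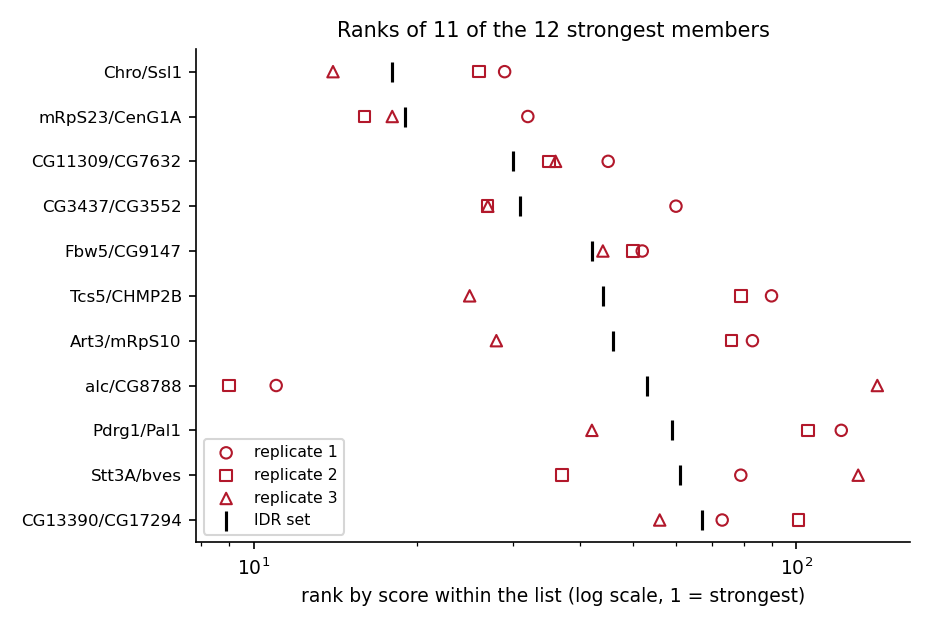
Rank by score within each list (horizontal log axis, 1 is the strongest region) of 11 of the 12 members with the largest score in the IDR set. Open symbols are the replicates and ticks the IDR set. All replicate ranks lie between 9 and 141, and alc/CG8788 spans that whole range.

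Over all members, the score was higher than at one-strand promoters in the IDR set, by an amount that depended on the window around start sites. Among the 100 strongest IDR peaks 16 were members, and 86, 55, 41, 51 and 46 fell in 5 successive blocks of 961 peaks from strong to weak. The median member stood at percentile 60.2 of the IDR scores and the median one-strand peak at 50.9, a difference of 9.26 points. In the replicates the divergent regions stood at percentiles 55.5, 50.5 and 66.2 and the one-strand ones at 51.0, 50.6 and 52.8. Replicates 1 and 3 put the divergent regions higher and replicate 2 did not, with a mean difference of 5.88 ± 6.90 points (SD, n = 3, exact permutation p = 0.5). With start sites within 250 bp the IDR difference was 24.3 points and the replicates gave 21.4 ± 2.81 (SD, n = 3, exact permutation p = 0.25), larger than their spread, and with 1000 bp the IDR difference was 1.13 points. In regions strong in both remaining replicates it was 5.66 points without replicate 1, 10.8 without replicate 2 and 6.69 without replicate 3.

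Divergent promoters were also more often above the IDR threshold among the regions found there. Of the 650 pooled regions at divergent promoters, 279 were IDR peaks, 42.9% (39.1 to 46.8), against 28.0% of 5685 one-strand regions and 16% of all pooled regions. Against 23895 pooled background regions, which were clear of all IDR peaks and more than 500 bp away from their summits and of which 1.35% were divergent, the odds ratio was 4.51, and for one-strand promoters it was 2.75. Within each replicate, with its strongest regions set against the rest of its list, the odds ratio was 2.55, 2.32 and 4.93 for divergent and 2.77, 2.67 and 2.66 for one-strand promoters in replicates 1, 2 and 3. The divergent value was the lower one in replicates 1 and 2 and the higher one in replicate 3, so the order of the classes was not shared by the replicates (exact permutation p = 1). The mean of these within-replicate divergent values was 3.63 without replicate 1, 3.74 without replicate 2 and 2.44 without replicate 3. The value of 4.51 itself was not recomputed without a replicate.

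Start regions of 2 genes held more summits per base than those of 1. The zone within 500 bp of start sites on both strands measured 1.67 Mb and carried 167 IDR summits per Mb, the zone of 1 strand measured 13.7 Mb and carried 116 per Mb, and the remaining 122 Mb carried 24.0 per Mb. In the strongest regions of replicates 1, 2 and 3 the divergent zone carried 186, 199 and 148 summits per Mb and the one-strand zone 129, 139 and 102. Replicate 3 was the lowest in both zones, yet the ratio was 1.44, 1.44 and 1.45, and the divergent zone was denser in 3 of 3 replicates (mean ratio 1.44 ± 0.00656, SD, n = 3, exact permutation p = 0.25). The replicates were less close at other settings. Their mean ratio was 1.67 ± 0.210 with the 2000 and 1.37 ± 0.142 with the 10000 strongest regions (SD, n = 3). The divergent zone lies closer to start sites on average, and counted only upstream of the nearest start site the ratio was 1.37 in the IDR set.

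**Figure D4:**
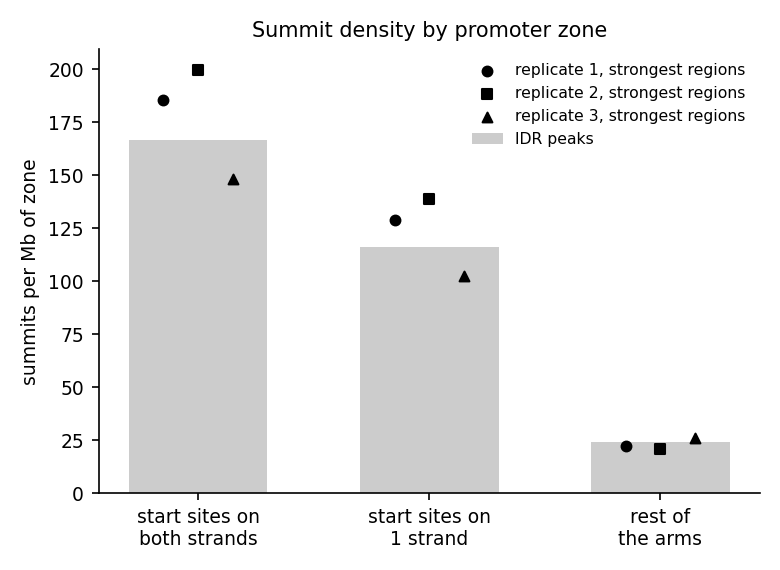
IDR summits per Mb (bars) and summits of the 4805 strongest regions of each replicate (symbols) in the zone within 500 bp of protein-coding start sites on both strands, of 1 strand, and in the rest of the arms. The divergent zone lies highest in the IDR set and in each replicate, at 148 to 199 summits per Mb.

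Most genes with a close opposite neighbour still had no peak. Of all 13968 protein-coding genes, 13% had an IDR summit no farther than 500 bp from one of their start sites. The share was 16.5% of the 5141 genes that have a start site within 1000 bp of one of an opposite-strand gene, and 11.0% of the other genes, a difference of 5.51 percentage points with a 95% Newcombe interval of 4.32 to 6.73. A summit near both genes of a pair counts for both, which raises the share with a partner by construction. Of the 849 genes with a partner and a summit, 552 lay at members. The interval treats genes as independent, which those sharing a summit are not. In replicates 1, 2 and 3 it was 19.4, 20.8 and 14.0% with a partner and 11.6, 12.8 and 9.86% without. Genes with a partner were higher in each (mean difference 6.63 ± 2.15 points, SD, n = 3, exact permutation p = 0.25). With regions found in 2 of the replicates in place of the IDR set, a smaller set by construction, the difference was 2.58 points without replicate 1, 2.39 without replicate 2 and 5.60 without replicate 3.

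Counted by pairs, 287 of the 2720 opposite-strand gene pairs with start sites within 1000 bp shared an IDR summit, 10.6% (9.42 to 11.8). Without replicate 1, 2 or 3 the share was 5.85, 5.63 and 9.41%, from smaller sets by construction. Pairs with overlapping 5′ ends were the most often occupied, 23 of 104, 22.1% (14.6 to 31.3), followed by pairs 200 to 299 bp apart, 78 of 531, 14.7% (11.8 to 18.0), and pairs 0 to 99 bp apart, 57 of 418, 13.6% (10.5 to 17.3). Pairs 100 to 199 bp apart stood at 30 of 350, 8.57% (5.86 to 12.01), and pairs 300 to 399 bp apart at 50 of 393, 12.7% (9.59 to 16.4). The class of 100 to 199 bp was also below both of its neighbours in each replicate, at 12.6, 14.0 and 8.00% against 15.6, 18.9 and 11.0% at 0 to 99 bp and 16.9, 18.1 and 12.1% at 200 to 299 bp in replicates 1, 2 and 3. From 400 bp on the share declined to 8.82% and then 1.74%. The stretch within 500 bp of both start sites shrinks over the whole range as they part, so all classes are compared at unequal lengths. In all classes up to 400 bp replicate 3 was the lowest of the 3. The summit lay between the start sites in 5 of 40 members with a gap under 100 bp, 10 of 25 at 100 to 199 bp, 51 of 75 at 200 to 299 bp, 35 of 57 at 300 to 399 bp and 52 of 56 at 400 to 599 bp. The rule sets part of this, since a summit within 500 bp of both genes has ever less room outside the gap as the gap widens, and none once the gap exceeds 500 bp.

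**Figure D5:**
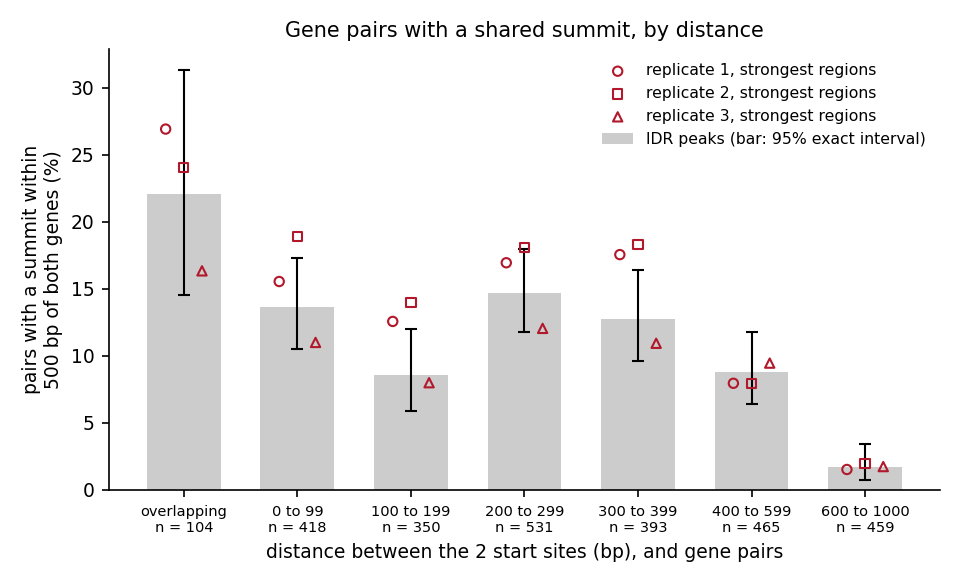
Percent of opposite-strand gene pairs with a summit within 500 bp of both genes, by the distance in bp between their start sites, for IDR peaks (bars, with 95% exact binomial intervals) and for the strongest regions of each replicate (symbols). The share is highest for overlapping pairs, 22.1%, and lowest for pairs 600 to 1000 bp apart, 1.74%.

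Genes for cytosolic ribosomal proteins were frequent among the members, and the summit mostly lay nearer to them than to their partners. Of 85 cytosolic ribosomal protein genes, 44 had an IDR summit at a start site, against 13% of all protein-coding genes, and 21 lay at members. They were thus frequent among genes with an IDR summit of any class, not only at members. Of the 52 with an opposite-strand partner 40.4% were at a member, against 10.7% of all genes with a partner. The strongest were RpS27/Nup37, RpL32/CG7943 and Dref/RpL13, with IDR ranks 285, 778 and 859. Dref codes for the factor that binds the DNA replication-related element TATCGATA, and the summit lay 5 bp inside RpL13 and 89 bp upstream of Dref. In the replicates RpS27/Nup37 ranked 224, 1447 and 163, and Dref/RpL13 ranked 586 and 1385 in replicates 1 and 2 and had no region in replicate 3.

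At these promoters the summit mostly lay close to the start site of the ribosomal protein gene. Of 22 members 15 had the summit between the start sites, 6 inside the ribosomal gene and 1 inside the other gene. Among the strongest regions of replicates 1, 2 and 3, 11, 9 and 14 such summits lay between the start sites. Inside the ribosomal gene lay 13, 10 and 1, so the order of the 2 places was not shared by the replicates. The ribosomal gene was the nearer one in 19 of 22 members, 86.4% (65.1 to 97.1), at a median of 22 bp from its start site, while the other gene lay at a median of 214 bp. The interval treats members as independent, but 2 of them lay at the same pair, Dph4/RpL13A. Among divergent summits of the replicates' strongest regions it was the nearer one in 22 of 25, 18 of 20 and 11 of 16 in replicates 1, 2 and 3. All 3 replicates were above 50%, and replicate 3, with the fewest such regions, was the lowest. TATCGATA lay within 100 bp of the summit in 6 of the 22 members, 27.3%, against 6.45% of all members. The median GC content of their 201-bp windows was 43.5%, above the 37.3% of all members.

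Mitochondrial ribosomal protein genes gave another picture. Of 73 such genes 58 had a partner and 10 had an IDR summit, against 13% of all protein-coding genes. Of these 10, 9 lay at members, 15.5% of those with a partner. Of these 9 members 6 were in the upper tier, from mRpS23/CenG1A, Art3/mRpS10 and mRpL23/CG9004 at IDR ranks 19, 46 and 146 to mRpL20/Icmt at 535. Cip4/mRpS6 at 2926 was in the middle tier, and Dg/mRpL34 at 3413 and mRpS16/cg at 4677 were in the lower tier. The ribosomal gene was the nearer one in 2 of the 9 (exact interval 2.81 to 60.0%), at a median of 170 bp, and the other gene lay at a median of 98 bp. In the replicates it was the nearer one in 4 of 10, 4 of 10 and 3 of 10, below 50% in each of them. The exact intervals, 12.2 to 73.8, 12.2 to 73.8 and 6.67 to 65.2%, all spanned 50%. None of the 9 had TATCGATA near the summit, but as 6.45% of all members had it, 9 are too few to show a difference. The median GC content of the windows was 31.8%.

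The other gene lists held few members. Of 41 genes for chromatin and insulator proteins 5 lay at members, 20.8% of those with a partner, namely Chro, the histone acetyltransferase gene Gcn5, Dref, and the zinc finger or BTB-domain genes pita and lolal. The latter 2 were weak, at IDR ranks 3488 and 3435 and with no region in replicate 3. Gcn5/ver was strong and even, at ranks 610, 600 and 457 in the replicates, with the summit 223 bp upstream of Gcn5 and 190 bp upstream of ver. Of 54 translation factor genes 3 lay at members, 10.7% of those with a partner, led by eIF4EHP, which codes for a cap-binding repressor of translation, at ranks 136, 71 and 49. Of the ecdysone list, whose genes carry the hormone response of the prepupal stage, 13 of 21 had an IDR summit, against 13% of all protein-coding genes. Of the 21, 5 had a partner and 2 lay at members, usp and tai, which code for the receptor's heterodimer partner and a coactivator. Their members held IDR ranks 2692, in the middle tier, and 4162, in the lower tier.

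The background is 3.95% of all protein-coding genes and 10.7% of those with a partner. Other housekeeping lists lay on both sides of the former value. By the share of genes with a partner, all of them but heat shock proteins and chaperones lay below the background. No gene of 32 for the spliceosome and small nuclear ribonucleoproteins had an IDR summit, although 29 had an opposite-strand partner. Of 84 genes of the respiratory chain and ATP synthase 1 lay at a member, ND-ASHI with Fum1, 2.33% of those with a partner, and of 48 proteasome genes 1, Rpn13 with CtsL1, 3.85%. Of 63 Mediator and general transcription factor genes 2 lay at members, Taf2 and MED30, 4.55% of those with a partner. Of 103 membrane traffic genes 3 did, 4.62% of those with a partner, with alphaCOP of the COPI coat at ranks 408, 522 and 454. Of 23 nuclear pore genes, 20 of them with a partner, 1 lay at a member, and of 48 replication and cell cycle genes 2, 7.69% of those with a partner. Heat shock proteins and chaperones, with 2 of 36, and aminoacyl-tRNA synthetases, with 2 of 33, stood near the background at 11.1 and 8.70% of those with a partner. The lowest-scoring member of all, Plp/GlyRS, belongs to the last of these, with ranks 7315 and 5910 in replicates 1 and 2 and no region in replicate 3.

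Several short sequence words differed in frequency between the members and one-strand promoter peaks, and ACACAC and TGAGTG also between the members and the unbound divergent promoters. The latter are the head-to-head pairs without a pooled summit within 500 bp of both genes. Exact matches on either strand were sought within 100 bp of the summit, and TATAAA and GTATNTTT can overlap in letters, as can GAGAGA and ACACAC with shifted copies of themselves. Windows at unbound divergent promoters and at all gene starts were not centred on a summit. The median GC content of the windows was 37.3% in members, 42.8% in one-strand peaks and 32.8% at unbound divergent promoters. The part of place and base composition in the word shares was not tested. GAGAGA, the word bound by GAGA factor, was present in 19 of 279 members, 6.81% (4.15 to 10.4), in 366 of 1591 one-strand promoter peaks, in 4.86% of unbound divergent promoters and in 8.35% of the regions around all gene starts. The difference of members from one-strand peaks was -16.2 points (Newcombe interval -19.4 to -12.1). In the replicates the shares were 7.72, 7.19 and 4.44% at divergent and 23.6, 24.2 and 20.7% at one-strand summits, with no overlap. Of the 19 members with the word, 3 were in the upper tier, 6 in the middle tier and 10 in the lower tier.

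TATCGATA, the element of Dref, went the other way. It was present in 18 members, 6.45% (3.87 to 10.005), against 0.754% of one-strand peaks, 8.66% of unbound divergent promoters and 7.83% of all gene starts. The replicate shares were 6.11, 3.89 and 7.26% at divergent and 0.793, 0.579 and 1.29% at one-strand summits, again without overlap. The difference of 5.70 points between members and one-strand peaks was 1.87 points without replicate 1, 4.30 without replicate 2 and 4.40 without replicate 3. CANCNCTA and GGTCACAC, both core promoter words of housekeeping genes in flies, were more frequent in members as well, at 12.2 and 4.66% against 5.97 and 1.89% of one-strand peaks, but stood near the 11.8 and 5.24% of unbound divergent promoters. The CANCNCTA difference from one-strand peaks, 6.22 points, was 1.57 points without replicate 1, and that of GGTCACAC was -1.77 with start sites within 250 bp. Around all gene starts they were at 12.2 and 6.74%. No upper-tier member had GGTCACAC, while 5 in the middle and 8 in the lower tier did.

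ACACAC, a CA repeat word, showed the largest difference between members and unbound divergent promoters among the 11 words. It was present in 46 members, 16.5% (12.3 to 21.4), and in 7.17% of unbound divergent promoters, a difference of 9.32 points (Newcombe interval 5.25 to 14.2). One-strand peaks had it more often, 22.4%, with a difference of -5.95 points that was -3.51 without replicate 1, and all gene starts less often, 11.5%. In the replicates it was present at 19.9, 19.2 and 11.3% of divergent summits, and replicate 3 was the lowest by a wide margin. TGAGTG followed the same order, with 9.32% of members, 5.48% of unbound divergent promoters, 14.1% of one-strand peaks and 8.71% of all gene starts, and its difference from one-strand peaks, -4.76 points, was -10.4 without replicate 2 and -7.64 without replicate 3. TATAAA was present in 99 members, 35.5%, of which 47 were in the upper tier and 26 in each of the others, and in 23.1% of one-strand peaks, 40.5% of unbound divergent promoters and 29.2% of all gene starts. Its difference from one-strand peaks, 12.4 points, was 19.2 without replicate 1 and 19.9 without replicate 2. For CAGCTG the interval of the difference from one-strand peaks spanned 0, and the same held for CACGTG, for GTATNTTT and for TGATAAG. These words were present, in this order, in 36, 6, 30 and 6 members and in 13.8, 2.88, 9.76 and 4.04% of all gene starts. None of the 11 words was found in 69 members.

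Every arm of chromosomes 2 and 3 and arm X held members, and arms 4 and Y, with 0 IDR peaks of any class, could hold none. There were 63 on 2L, 48 on 2R, 66 on 3L, 71 on 3R and 31 on X. The members were 7.38% of the IDR peaks on 2L and 3.59% of those on X, against 5.81% on all arms, and the share of gene pairs with a summit was 12.4, 9.37, 13.4, 9.73 and 7.80% in the same order of arms. Replicate 3 listed 2960 regions on X, against 5391 and 5395 in replicates 1 and 2. Of the 31 members on X 17 had a region in replicate 3, and of the 248 elsewhere 193 did, while replicates 1 and 2 held 275 and 274 of all 279. Values on X thus rest mainly on 2 replicates, and the part of this in the low share there was not tested.

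At the main settings the members overlapped replicate regions somewhat less often than one-strand promoter peaks did, but not at all settings. Among the strongest regions 227 members overlapped a region in replicate 1, 222 in replicate 2 and 184 in replicate 3, 81.4, 79.6 and 65.9%, against 83.4, 84.5 and 67.4% of one-strand peaks. Members were lower in each, with a mean difference of -2.79 ± 1.85 points (SD, n = 3, exact permutation p = 0.25). All 3 strongest sets held 125 members, 44.8%, and 49.9% of one-strand peaks, a difference of -5.10 points (Newcombe interval -11.3 to 1.26). This difference was 4.63 points with the 2000 strongest regions of each replicate and 2.07 points with start sites within 250 bp, so its direction was not stable. Another 109 were in 2 of the sets, 40 in 1 and 5 in none, the latter being cnk/l(2)k01209, CdGAPr/CG10466, CG3744/CG11089, CG45218/Tm1 and Plp/GlyRS, all from IDR rank 3191 on. Using each replicate's whole list, 203 members overlapped a region in all of them. In the whole list of replicate 3 it was 210 members, 75.3%, against 82.2% of one-strand peaks, a difference of -6.94 points (Newcombe interval -12.6 to -1.86), while in replicates 1 and 2 the differences were -0.302 and -0.724 points with intervals that spanned 0. Just 2, Ino80/Aptx and CG12182/CG16985, appeared in replicate 3 alone, at ranks 1040 and 879 there. The strongest member missing from a list was Ns2/POSH, ranked 226 and 159 in replicates 1 and 2 and not listed in replicate 3.

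Scores at the edge of the rule were compared for the 3 members just inside it and the 3 promoter peaks just outside it. The farthest second gene inside the limit lay 497 bp away, at stg/CG45544 with a score of 433, where stg codes for the Cdc25 phosphatase String, followed by Rok/RpS19a and sni/Trxr1, both at 496 bp with scores of 445 and 192. Just outside lay CG8188/par-6 at 507 bp, Nepl19/Nepl20 at 509 bp and CG15097/CG15082 at 515 bp, with scores of 316, 576 and 199. The ranges of score on either side overlap, and with so few peaks no likeness can be drawn from this.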

How the data were processed

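The dm6 lists of the 3 replicates, their pooled list and the IDR set were used, and lists on dm3 were not used. Each list holds 30000 regions except the IDR set, which holds 4822, 4805 of them on the arms. The score of each region is the authors' deposited score, comparable only within a list. Per the files' own listings, the replicate lists were made from the alignments of 1 replicate each and the IDR set from the replicate and pooled lists. Which peak caller, aligner and IDR threshold the authors applied is not given in the sources used here, control libraries were not analysed here, and read depth is unknown, so intervals cover counting error only. Replicates are biological, per the labels.

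Start sites came from Ensembl release 115 and sequence from RefSeq Release 6, in which 99.8% of annotated start codons read ATG and 0 regions ran past an arm's end. Regions overlap from 1 bp on. Exact binomial and Newcombe intervals are at 95%, and tests are exact two-sided sign-flip permutations over 3 replicates. The summit classes, zone densities, word search, Newcombe interval and sign-flip test were checked on simulated data, and the other steps were not. Python 3.11.15, numpy 2.4.6 and scipy 1.17.1 were used.

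The members, the 14 gene lists, the words and the tests were chosen with earlier results of these data known. Named are the 12 members of largest score, the largest on each arm, the strongest 3 per gene list, the 3 on either side of the 500 bp limit, and the strongest missing from replicate lists, and 1 of the first 12 is not reported here. The score tiers, the GC windows, the nearer-gene counts, the GC values by summit place, the differences in whole lists, the sequences and the 5 members in no strongest set were chosen after their values were seen. Alternatives were other start-site windows and sites, other numbers of strongest regions, other overlaps, a stricter score, other sequence windows and leaving out each replicate.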

Additional observations from a re-analysis of the deposited data

How the results depend on the processing

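Of 118 alternative values for the main results, 95 kept their direction or stayed within the replicate spread, 21 moved beyond it and 2 reversed. The share of IDR peaks that are members was 10.7% with start sites within 1000 bp and 2.96% within 250 bp, by construction. The share of gene pairs with a summit was 6.25% with scores above the median and 5.63 to 9.41% without one replicate. The median score difference ran from 1.13 to 24.3 points and the share between the start sites from 52.7 to 69.4%. The density ratio stayed between 1.30 and 1.69, the excess of summits between the start sites in the upper tier between 12.5 and 31.4 points, and its summit GC difference between -14.5 and -2.02 points, the latter at the midpoint of the gap. The replicate mean of the excess of summits was lower with the 250 bp window, 6.31 ± 3.19 points against 21.8 ± 5.03 at the main setting (SD, n = 3). The overlap with all strongest sets, divergent minus one-strand, reversed to 4.63 points with the 2000 strongest regions and to 2.07 with the 250 bp window.

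For GAGAGA the difference was -24.8 points within 200 bp of the summit, -9.94 within 50 bp, -16.9 for head-to-head pairs, -17.5 for peaks within 200 bp of a start site, -10.5 and -18.6 with the 1000 and 250 bp windows, and -18.5 to -15.4 without one replicate. For TATCGATA it was 9.14 and 2.97 within 200 and 50 bp of the summit, 7.83 with scores above the median, 3.77 and 7.26 with the 1000 and 250 bp windows, and 1.87 to 4.40 without one replicate. ACACAC reversed to 0.0208 points with the 1000 bp window and GGTCACAC to -1.77 with the 250 bp window. The cause was not tested. Of 99 values for the other words 44 stayed within the replicate spread and 53 moved besides the last 2. CACGTG and TGATAAG, whose intervals spanned 0, changed sign in 3 and 1 of 11 settings.

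With 3 replicates of 1 group, unknown depth and whole animals, no sign-flip permutation test can reach 0.05 and no difference between conditions or cell types can be drawn.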

Other observations

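A few divergent promoters carried more than 1 IDR summit. Of the 287 gene pairs with a summit 14 had at least 2, and p38a/CG6178, where p38a codes for a stress-activated kinase, had 3. Its strongest summit lay 119 bp upstream of p38a and 263 bp upstream of CG6178, at ranks 203, 127 and 79 in the replicates, and the weaker ones ranked 3967 and 4123 in the IDR set. The others with 2 included the mitochondrial chaperone gene Hsc70-5 with CG8531, and the ribosomal protein gene RpL13A with Dph4 and with Spec2.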
